A study of Zea mays with 4 samples.

Results

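The miR167 family of maize (Zea mays) is described here through its 10 named members in the deposited table of small RNA counts, zma-miR167a to zma-miR167j, written without the prefix in the text and chosen by name from 270 entries of which 161 were known miRNAs. The 10 names carry only 2 distinct mature sequences, miR167a/b/c/d and miR167e/f/g/h/i/j, among 72 distinct known sequences. The libraries came from inbred line B73, with 1 library per tissue: pollinated silks (PS), mature silks (MS), germinated pollen (GP) and mature pollen (MP). PS was silk harvested 30 min after an excess of pollen was applied, and still held germinated and residual pollen. MS was unpollinated silk extending about 5 cm out of the husk, GP was pollen cultured for 30 min in liquid medium, and MP was pollen shaken from tassels. Pollen used for MP and GP germinated at over 90%. Library depth was 5205129 clean reads in PS, 5775303 in MS, 10575042 in GP and 3638941 in MP, so that 1 read equals 0.192, 0.173, 0.0946 and 0.275 TPM (reads scaled to the clean reads of the library, with no scaling by length) in PS, MS, GP and MP. With 1 library per tissue there is no replicate check, every test on reads compares 2 libraries and not the conditions, and intervals cover counting error only, since reads amplified by PCR are not independent molecules. The table holds only miRNAs, so the tissues were not checked against marker genes.

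Auxin controls transcription through auxin response factors (ARFs), DNA-binding proteins that activate or repress auxin-responsive genes. miR167 is an ancient plant miRNA that directs cleavage of mRNAs of activating ARFs, best known from ARF6 and ARF8 of Arabidopsis, where this pair acts in flower maturation and fertility. Plant miRNAs pair with their targets along nearly their whole length, so a base at either end of the miRNA can alter how well a site fits.

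The mature sequences of the family are shown first because the results turn on a single base at their 3′ end. Capitals mark the seed, bases 2 to 8 from the 5′ end, and base 21, and U stands for the T of the deposited table.
miR167a/b/c/d: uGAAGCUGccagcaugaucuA
miR167e/f/g/h/i/j: uGAAGCUGccagcaugaucuG
Both have 21 nt and differ at 1 position, A21G, counted from the 5′ end with the base of miR167a/b/c/d first. The first 20 bases are the same, so a shortened read that lacks the last base fits both sequences. No other known sequence and no predicted miRNA of the table had the seed GAAGCUG, and 0 shared a stretch of 18 or more bases with miR167. RefSeq (Zm-B73-REFERENCE-NAM-5.0) names 10 MIR167 hairpin genes, and 9 of them lie within annotated lncRNA genes. The hosts of MIR167a and MIR167g neighbour each other, although these hairpins give different mature sequences.

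Both miR167 sequences were abundant in silks and scarce in pollen, and both were lowest in germinated pollen. Names that share a sequence differed in count, so each sequence is given by its member with the largest read total of the 4 libraries, miR167a and miR167h. miR167h had 1 read fewer than miR167e in each pollen library and more reads in silks, so this choice gives a wider gap between silk and pollen than miR167e would. miR167a/b/c/d had 607 reads in PS, 574 in MS, 11 in GP and 28 in MP. These counts correspond to 117 TPM in PS (exact 95% interval 108 to 126), 99.4 in MS (91.4 to 108), 1.04 in GP (0.519 to 1.86) and 7.69 in MP (5.11 to 11.1). The intervals of the silk libraries lie far above those of the pollen libraries, and those of PS and MS overlap slightly.
miR167e/f/g/h/i/j had 1184 reads in PS, 1063 in MS, 1 in GP and 6 in MP. Its level was 227 TPM in PS (215 to 241), 184 in MS (173 to 195), 0.0946 in GP (0.00239 to 0.527) and 1.65 in MP (0.605 to 3.59). The order of the libraries was thus the same for both sequences, PS, MS, MP and then GP, but miR167e/f/g/h/i/j rested on single reads in pollen.

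**Figure D1:**
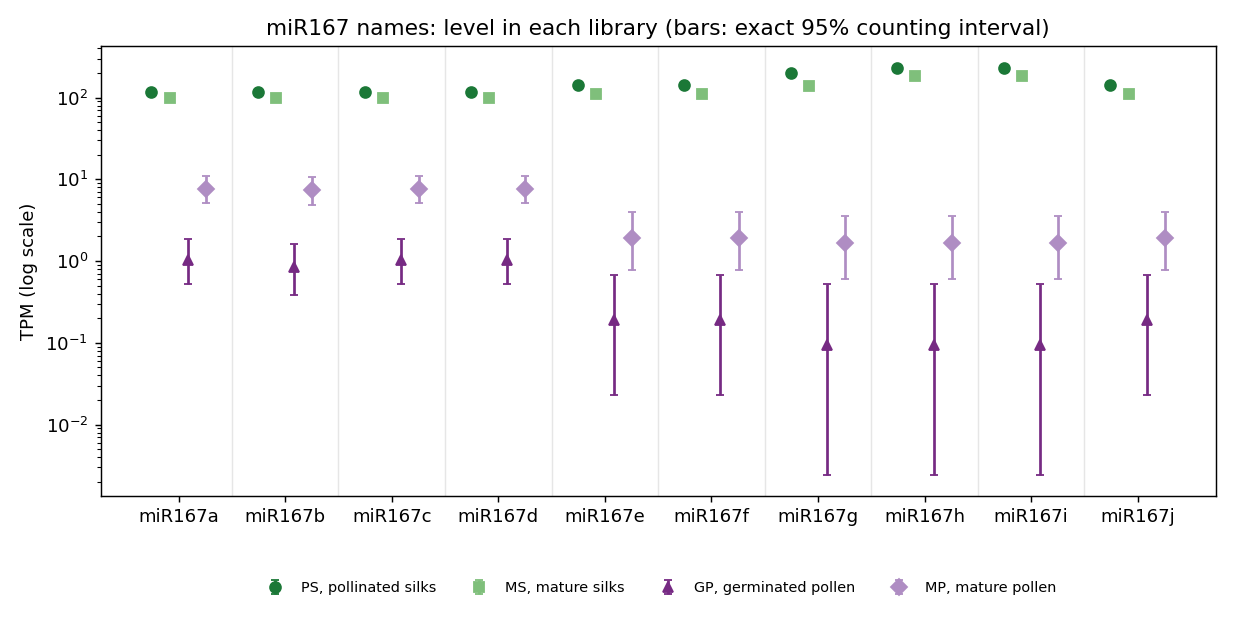
Level of each of the 10 miR167 names (x axis) in TPM on a log scale (y axis) in PS, MS, GP and MP, with exact 95% counting intervals. For every name PS and MS lie above both pollen libraries and GP lies below MP, and the gap between silks and pollen is wider for miR167e to miR167j than for miR167a to miR167d.

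Among known miRNAs, miR167 held a middle place in silks. Summed over both sequences, the family stood at 344 TPM in PS, 283 in MS, 1.13 in GP and 9.34 in MP. It ranked 10 of 27 families in both silk libraries, below miR169 (977 TPM in PS and 603 in MS), a regulator of NF-YA genes. In GP it ranked 13 and in MP 6, where the family just above it, miR166, stood at 134 TPM. That value adds the overlapping sequences of miR166a and of miR166b to miR166i, with 233 reads each in MP. Family sums and shares of known reads can thus count a read more than once. Of the reads of distinct known sequences, the family took 0.956% in PS, 0.880% in MS, 0.0272% in GP (exact 95% interval 0.0141% to 0.0475%) and 0.171% in MP (0.119% to 0.239%). As single sequences, miR167a/b/c/d ranked 18 of 62 detected in PS, 15 of 57 in MS, 17 of 46 in GP and 10 of 38 in MP. miR167e/f/g/h/i/j ranked 14 in PS and 12 in MS, above its sister, but 18 in MP and only 36 in GP, where 12 sequences including it had a single read.

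The prevailing sequence of the family was not the same in silks and pollen. miR167e/f/g/h/i/j made up 66.1% of the miR167 reads in PS (1184 of 1791 reads, exact 95% interval 63.9% to 68.3%) and 64.9% in MS (1063 of 1637 reads, 62.6% to 67.2%). In pollen it made up 8.33% in GP (1 of 12 reads, 0.211% to 38.5%) and 17.6% in MP (6 of 34 reads, 6.76% to 34.5%). The ratio of miR167e/f/g/h/i/j to miR167a/b/c/d was therefore 8.64-fold higher in MS than in MP (interval 3.48 to 25.6), with p = 2.91e-08 by a 2-sided Fisher's exact test and 1.16e-07 after adjustment over 4 comparisons. It was 21.5-fold higher in PS than in GP (3.10 to 924), with an exact p of 5.98e-05 and 0.00012 after adjustment. Neither comparison depends on library depth or scaling, since both sequences were read from the same libraries.
Within a tissue no such difference was seen. The ratio of the sequences in PS was 1.05 times that in MS (0.912 to 1.22, Fisher's exact p = 0.472), and that in GP was 0.424 times that in MP (0.00847 to 4.24, p = 0.657), an interval too wide to tell a large difference from none. By the members with the fewest reads, miR167e and miR167b, the share of miR167e/f/g/h/i/j was lower in silks, 55.2% in PS and 52.9% in MS, and 18.2% in GP and 20.6% in MP. By these members the difference in MS against MP was smaller, 2.12 in log2 instead of 3.11 (Fisher's exact test, p = 0.000185). That in PS against GP no longer passed, with 2.47 in log2 instead of 4.42 (Fisher's exact test, p = 0.0281). Reads that lack base 21 can be counted for both sequences, and their part in these shares was not tested.

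**Figure D2:**
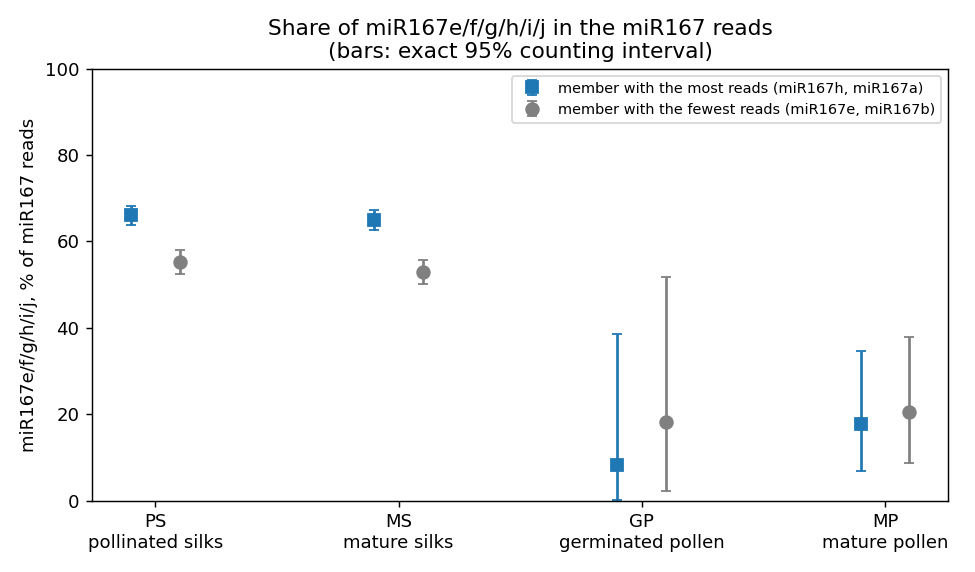
Share of miR167e/f/g/h/i/j in the reads of both miR167 sequences (y axis, percent) in PS, MS, GP and MP, from the members with the most reads and from those with the fewest, with exact 95% counting intervals. The share lies above 50% in both silk libraries and at 20.6% or less in both pollen libraries, with wide intervals in pollen.

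Germination of pollen was the question of the GP and MP comparison, and both miR167 sequences were lower in GP. miR167a/b/c/d had 1.04 TPM in GP, against 7.69 TPM in MP, a ratio of 0.135 (exact 95% interval 0.0607 to 0.280) or -2.89 in log2. Fisher's exact test gave p = 2.01e-09, or 1.65e-08 with Benjamini-Hochberg adjustment. The lower count in GP, 11 reads against 28 in MP, came from the deeper library.
miR167e/f/g/h/i/j had 1 read in GP, against 6 in MP, a ratio of 0.0574 (0.00125 to 0.473) or -4.12 in log2, with an exact p of 0.00154 and 0.00557 after adjustment. A sequence was called where p was below 0.01 and its level differed by more than 1.5 in log2. By this rule 2 of 2 miR167 sequences were lower in GP, beside 13.7% of the 51 distinct known sequences with reads in either library, while 3.92% were higher and 17.6% were called in all. The 13.7% includes both miR167 sequences. Reads that lack the last base can count for both, so the 2 calls may not be separate. Each of the 10 names alone also passed. Names of 1 sequence had the same or nearly the same pollen counts, so these are not separate tests. The study also measured miRNAs of GP and MP by stem-loop RT-PCR and reported patterns similar to sequencing. It named zma-miR167a/b/c/d among a few members whose levels differed slightly between the methods.
Known sequences with reads in both pollen libraries were mostly lower in GP. The drop was smaller by other measures. Over the 34 known sequences with a ratio the median log2 ratio was -0.80. In 5 of these 34 a count of 0 was set to 3 reads, so the ratio is a bound. miR159g, with 5 reads in GP and 0 in MP, was thus given -0.80. Reads of distinct known sequences took 0.417% of clean reads in GP, against 0.546% in MP. The median log2 ratio of the 33 sequences with reads in both libraries was -1.12. These include sequences with 3 reads or fewer in each library, which are not among the 34. Relative to the median of -1.12, miR167a/b/c/d stood at -1.76 and miR167e/f/g/h/i/j at -3.00. Of these 33, 26 had a larger ratio than miR167a/b/c/d and 31 a larger one than miR167e/f/g/h/i/j. The calls depended on the scaling: under TMM, which shifted every log2 ratio by 1.41, that of miR167a/b/c/d was -1.48 and that of miR167e/f/g/h/i/j was -2.72 (Fisher's exact test, p = 0.0596), and neither passed.

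**Figure D3:**
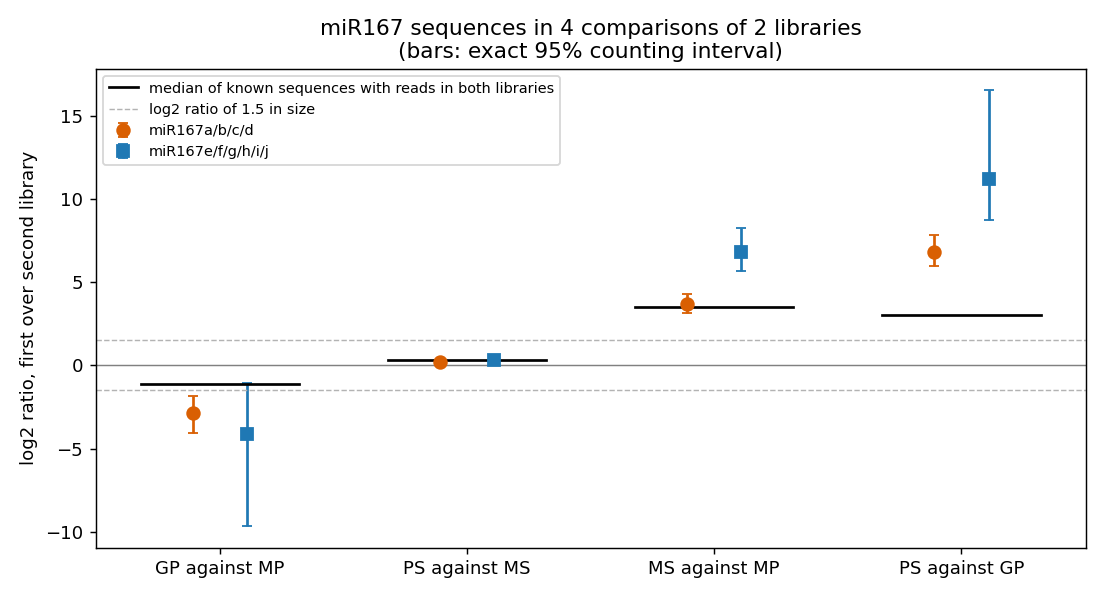
Log2 ratio of the first over the second library (y axis) for both miR167 sequences in the GP against MP, PS against MS, MS against MP and PS against GP comparisons, with exact 95% counting intervals, the limit of 1.5 (dashed) and the median of the known sequences with reads in both libraries (black). In PS against MS both sequences lie close to that median, and in PS against GP both lie above it.

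In silks, where the question was the response to pollination, both miR167 sequences changed little. miR167a/b/c/d had 117 TPM in PS, against 99.4 TPM in MS, a ratio of 1.17 (exact 95% interval 1.05 to 1.32) or 0.23 in log2. Fisher's exact test gave p = 0.00615, or 0.0216 with Benjamini-Hochberg adjustment. miR167e/f/g/h/i/j had 227 TPM in PS, against 184 TPM in MS, a ratio of 1.24 (1.14 to 1.34) or 0.31 in log2, with an exact p of 5.42e-07 and 3.42e-06 after adjustment. Both were far below the limit of 1.5 for a higher level, and none of the 2 sequences was called, beside 15.2% of 66 distinct known sequences (9.09% higher and 6.06% lower in PS). By other names of miR167e/f/g/h/i/j the ratio was larger, at most 1.42 (1.29 to 1.55) or 0.50 in log2 for miR167g. That too was far below the limit, which is 1.5 in log2.
The median log2 ratio of the 53 known sequences found in both silk libraries was 0.31, which is the value of miR167e/f/g/h/i/j itself, and 26 of them had a larger ratio. Scaled by TMM, which shifted log2 ratios by -0.25, miR167a/b/c/d stood at -0.02, so its direction rests on the scaling. PS also held pollen, in which miR167 was scarce (1.13 TPM in GP, against 344 TPM in PS), and the share of pollen RNA in PS was not tested.

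Between tissues, miR167 was higher in silks. miR167a/b/c/d had 574 reads in MS, against 28 in MP, and was 12.9-fold higher in MS (exact 95% interval 8.84 to 19.6) or 3.69 in log2, with an exact p of 6.81e-86. miR167e/f/g/h/i/j had 1063 reads in MS, against 6 in MP, and was 112-fold higher (51.1 to 305) or 6.80 in log2, with an exact p of 3.52e-213. By miR167e it was 58.0-fold higher (28.0 to 145) or 5.86 in log2. In this comparison 53.3% of the 60 distinct known sequences were called higher in MS, 1.67% lower and 55% in all, so that the call of 2 of 2 miR167 sequences does not set the family apart. The median log2 ratio of the 35 sequences with reads in both libraries was 3.53, and miR167a/b/c/d lay 0.16 above it while miR167e/f/g/h/i/j lay 3.27 above it. Only 5 of the 35 had a larger ratio than miR167e/f/g/h/i/j, against 13 for miR167a/b/c/d. The call of miR167a/b/c/d was lost under each scaling to other known miRNAs, with log2 ratios of 0.33 by TMM, 0.16 by the median ratio and 1.13 by the total of known reads.
In PS against GP the gap was wider. miR167a/b/c/d was 112-fold higher in PS (607 reads against 11, interval 62.2 to 226) or 6.81 in log2, and miR167e/f/g/h/i/j was 2405-fold higher (1184 reads against 1, interval 431 to 95091) or 11.23 in log2. By miR167e, with 749 reads in PS against 2 in GP, miR167e/f/g/h/i/j was 761-fold higher (209.9 to 6294) or 9.57 in log2. Of the 69 distinct known sequences 59.4% were called higher in PS, 2.9% lower and 62.3% in all, with a median log2 ratio of 3.02 over the 39 found in both. Both miR167 sequences stood above that median, by 3.79 and by 8.21, and both stayed called higher under each scaling tried. Fewer cells of a type and less miRNA per cell cannot be told apart in such bulk tissue.

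Names that share a mature sequence did not have the same counts in silks. The authors added reads that differ by up to 2 bp in length from the mature sequence, and such reads can fit one precursor and not another. zma-miR167h had 1184 reads in PS and 1063 in MS, and zma-miR167i had 1183 in PS and 1062 in MS. zma-miR167g had 1035 reads in PS and 811 in MS. zma-miR167e had 749 reads in PS, zma-miR167f and zma-miR167j had 751 each, and all of these 3 had 644 in MS.
The names of this sequence thus fell into 3 levels in silks, miR167h/i above miR167g above miR167e/f/j. At least 435 of the 1184 reads of miR167h in PS (36.7%) and 419 of its 1063 reads in MS (39.4%) were therefore not counted for miR167e. miR167g exceeded miR167e by 286 reads in PS (27.6% of its reads) and 167 in MS (20.6%).
The intermediate name, miR167g, had the largest ratio of PS to MS, 1.42 (exact 95% interval 1.29 to 1.55), beside 1.24 for miR167h and 1.29 for miR167e, a difference that was not tested since the names share reads. In pollen the order was the other way by a single read, with 1 in GP and 6 in MP for miR167g, miR167h and miR167i, and 2 in GP and 7 in MP for miR167e, miR167f and miR167j. The names of the other sequence hardly differed. zma-miR167a, zma-miR167c and zma-miR167d had the same counts in all 4 libraries, and zma-miR167b had 2 fewer reads in GP and 1 fewer each in MS and MP. The overlap of reads between names was not measured. Reads counted for miR167h and not for miR167e set these names apart, but for the other reads the loci of origin cannot be told apart.

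**Figure D4:**
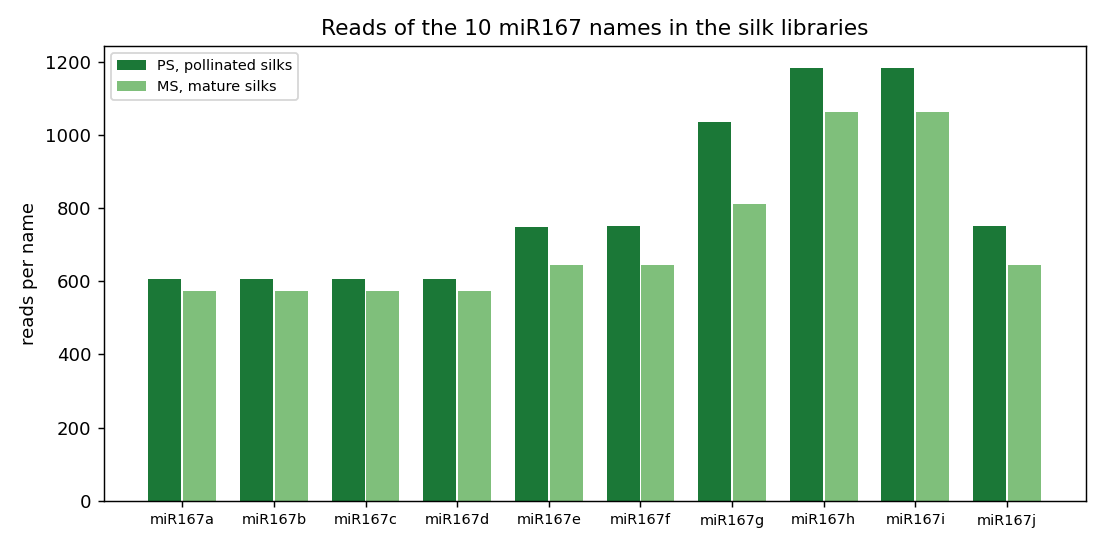
Reads (y axis) counted for each of the 10 miR167 names (x axis) in PS and MS. miR167a to miR167d are level, while miR167h and miR167i stand above miR167g, and miR167g above miR167e, miR167f and miR167j, in both libraries.

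The predicted target sites differed between the sequences, and sites in genes named as ARFs were listed for 1 of them. For miR167a/b/c/d the authors' target column lists 5 genes with 8 transcripts, and for miR167e/f/g/h/i/j it lists 3 of these genes with 3 transcripts. The ARF genes are GRMZM2G078274 and GRMZM2G475882, named ARF3 and ARF30 among the maize synonyms of RefSeq and annotated by the study as relatives of ARF6. Their sites are given for miR167a/b/c/d only, at transcript positions 2531 to 2551 of GRMZM2G078274_T01 and 2581 to 2601 of GRMZM2G475882_T01. Among the genes listed for miR167e/f/g/h/i/j 0 are named as ARFs, but only 1 of the 3 has a name.
The genes listed for both sequences have the same site positions. GRMZM2G068328, annotated by the study as an oxidoreductase, has its site at positions 699 to 719 of its first transcript. The sites of GRMZM2G502560 and GRMZM2G039556, which have no name in RefSeq or in the study's list, lie at positions 988 to 1008 and 138 to 158. Each site spans 21 bases. The study's criteria allowed fewer than 3 mismatches, so the absence of a gene from a list reflects that limit and carries no measurement of cleavage or mRNA. In the study's own real-time RT-PCR, mRNA of GRMZM2G078274 ran opposite to zma-miR167a/b/c/d, while that of GRMZM2G475882 went with its miRNA. The study also lists RT-PCR primers for GRMZM2G039556 and GRMZM2G068328. Its text does not name these genes among those that went with their miRNA. No other miRNA family of the table lists any of the 5 genes, and miR160, with 11 genes, has the longest list among the auxin-related families.

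The other auxin-related families of the table were miR160, miR390 and miR393. miR160 represses ARFs of the ARF10, ARF16 and ARF17 type, miR390 starts the trans-acting siRNAs that act on ARF3 and ARF4, and miR393 represses the auxin receptors TIR1 and AFB. Their sequences are given with the seed in capitals to show that none has the seed of miR167, and that the pairs within miR160 and miR393 also differ at the last base.
miR160a/b/c/d/e/g: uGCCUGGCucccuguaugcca
miR160f: uGCCUGGCucccuguaugccg
miR390a/b: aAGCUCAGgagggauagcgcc
miR393a/c: uCCAAAGGgaucgcauugaucu
miR393b: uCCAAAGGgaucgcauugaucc
In PS against MS, miR160a/b/c/d/e/g was lower (34 reads in PS against 207 in MS), with a ratio of 0.182 (exact 95% interval 0.123 to 0.263). So were miR393a/c, with 32 reads in PS against 176 in MS and a ratio of 0.202 (0.134 to 0.295), and miR393b, with 7 against 147 and a ratio of 0.0528 (0.0209 to 0.112). miR390a/b had 459 reads in PS and 641 in MS, a ratio of 0.795 (0.703 to 0.897) that stayed within the limits. Of the 7 sequences of the 4 auxin-related families 3 were called lower and 0 higher, beside 6.06% and 9.09% of all distinct known sequences, with a median log2 ratio of -1.97, beside 0.37 over the 52 known sequences with a ratio. Scaled to clean reads, the other 5 had ratios of 0.795 or less, against 1.17 and 1.24 for the miR167 sequences. Scaled by the median ratio, miR167a/b/c/d stood at -0.075 in log2, and its direction in this comparison rests on the scaling. That of miR167e/f/g/h/i/j did not turn, with log2 ratios of 0.059 by TMM and 0.145 by known reads. By the median ratio miR167e/f/g/h/i/j stood at 0, being itself the median, so its size also rests on the scaling.
In GP against MP, miR160a/b/c/d/e/g was called lower like both miR167 sequences (2 reads in GP against 8 in MP, a ratio of 0.086 with an interval of 0.0089 to 0.431). miR390a/b was called higher, with 347 reads in GP against 25 in MP and a ratio of 4.78 (3.18 to 7.48). Over the 7 tested sequences 1 was higher and 3 lower, beside 3.92% and 13.7% of all distinct known sequences. The median was -1.21 over 6 with a ratio, beside -0.80 over all 34 known sequences with one, 5 of them bounds. Without miR167 the median of the other 4 was 1.19. It falls between miR393a/c (12 reads in GP against 3 in MP) and miR393b (11 against 1), neither of which was called. In MS against MP 6 of the 7 were called higher, beside 53.3% of all distinct known sequences. Their median log2 ratio was 4.03, beside 3.18 over 46 known sequences, of which 16 are bounds with a count of 0 set to 3 reads. Over the 35 known sequences with reads in both libraries the median was 3.53. In PS against GP 4 of the 7 were called higher, near the 59.4% of all distinct known sequences. The median was 3.77 over 6, beside 3.19 over 56 known sequences, of which 19 are bounds. Over the 39 known sequences with reads in both libraries it was 3.02. The miR167 sequences had the largest ratios of PS to GP in the list, 112 and 2405 (761 by miR167e), followed by 34.5 for miR160a/b/c/d/e/g.

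**Figure D5:**
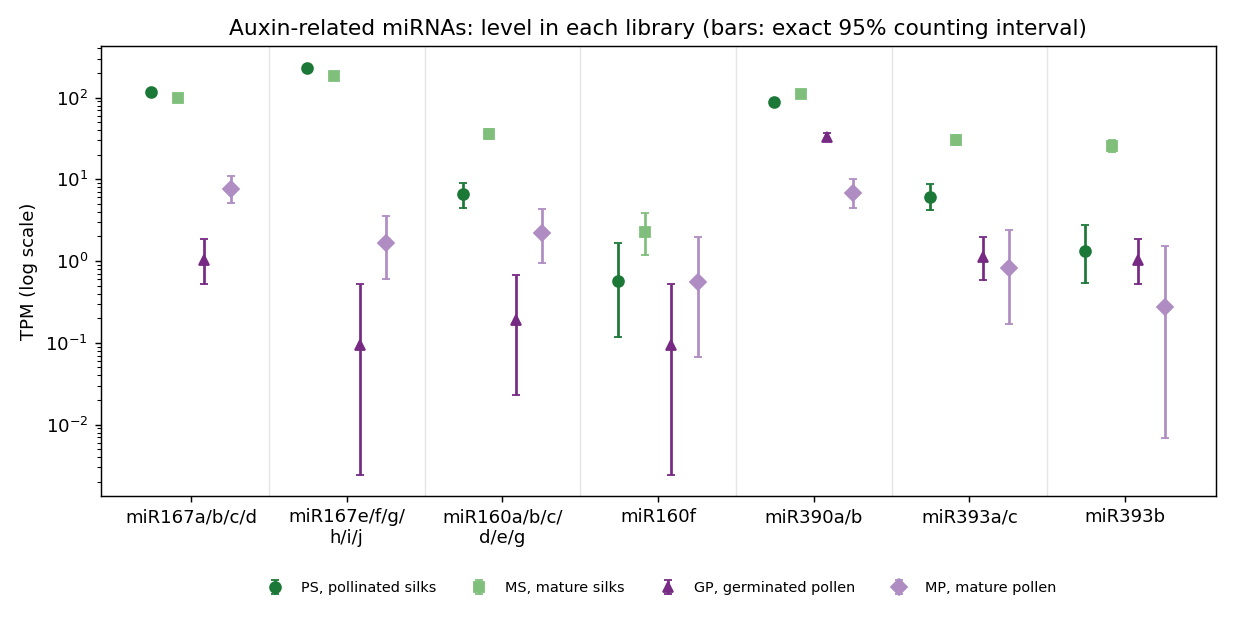
Level of the 7 distinct sequences of the auxin-related families (x axis) in TPM on a log scale (y axis) in PS, MS, GP and MP, with exact 95% counting intervals. For each miR167 sequence the PS and MS levels lie close together, while miR160 and miR393 sequences lie lower in PS than in MS, and miR390a/b is the only one with over 30 TPM in GP.

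Across the libraries, the miRNAs most like the 2 miR167 sequences were not the same. Likeness was the distance between log2(TPM + 0.5) profiles over the 4 libraries, each centred on its own mean, among 46 distinct known sequences with at least 10 reads in a library, and with 4 libraries it is a description only. The nearest to miR167a/b/c/d was miR162, which represses the miRNA-processing enzyme gene DCL1, at a distance of 0.43. miR162 had 622 reads in PS, 506 in MS, 6 in GP and 27 in MP, close to miR167a/b/c/d in every library. Next were the overlapping sequences of miR166b to miR166i and of miR166a, regulators of HD-ZIP III genes, at 0.87 each, then miR319a/b/c/d at 1.47 and miR164h at 1.74.
The nearest to miR167e/f/g/h/i/j was miR169a/b at 0.68, with 1979 reads in PS, 1407 in MS, 2 in GP and 5 in MP. miR408/b, which acts on mRNAs of copper proteins, followed at 0.92 with 837 reads in PS, 529 in MS, 1 in GP and 7 in MP. miR164f, miR171d/e/i/j and miR166j/k/n stood at 1.58, 1.81 and 1.93. The miR167 sequences were 2.61 apart, which put miR167e/f/g/h/i/j at place 14 from miR167a/b/c/d, and miR167a/b/c/d at place 9 from miR167e/f/g/h/i/j. These distances rest on few reads in pollen, where the miR167, miR162, miR169 and miR408 sequences named had 28 reads or fewer in each library. miR164h, miR164f and miR166j/k/n had 0 reads in GP and in MP, so their pollen values are the added 0.5 TPM alone. miR319a/b/c/d had 1 read in each. miR171d/e/i/j had 4.16 TPM in GP and 3.30 in MP, the opposite order to miR167.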

How the data were processed

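Small RNAs of 18 to 30 nt from PS, MS, GP and MP were gel-purified, ligated to adaptors, amplified in 18 PCR cycles and sequenced by the authors. Their pipeline aligned clean reads to the B73 genome (RefGen_2v) by SOAP, filtered out rRNA, tRNA and snoRNA reads, and assigned names by Blastn to miRBase. The authors' deposited counts are whole reads per name and include length variants of up to 2 bp. TPM was deposited by the authors as the count scaled to the clean reads, not scaled by length, and was recomputed with a difference of 0. Chi-square p-values between libraries were also deposited and were not used.

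Clean reads were recovered from count and TPM. Reads of each sequence against all other clean reads were compared between libraries by 2-sided Fisher's exact tests (scipy 1.17.1) with exact (Clopper-Pearson) 95% intervals. Benjamini-Hochberg values covered all distinct sequences, known and predicted, with reads in either library. Calls needed p below 0.01 and a log2 difference of more than 1.5. In PS against MS, a higher call also needed a silk count over 10 times that of a pollen library, and a lower call a log2 ratio under -2. Ratios were left out where neither count exceeded 3 reads, and 0 was set to 3 reads. A ratio with a count so set is a bound, and medians over sequences with a ratio include bounds. Medians over sequences with reads in both libraries kept every such sequence. edgeR 4.0.16 gave TMM factors only, computed like the median ratio for each pair of libraries from distinct known sequences. Functions were tested on simulated data. Members, lists and tests were chosen with earlier results of these data known. Named miRNAs are miR167, the families miR160, miR390 and miR393, the 5 nearest profiles of each miR167 sequence, and their listed targets. Families next to miR167 in rank were named after their values were seen.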

Additional observations from a re-analysis of the deposited data

Results flagged for a closer look

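The gap between silk and pollen was larger after pollination and germination than before for both miR167 sequences, by an exact conditional test that uses the clean reads of the 4 libraries. For miR167a/b/c/d the log2 ratio was 6.81 for PS against GP and 3.69 for MS against MP, a difference of 3.12 (exact test, p = 1.87e-10). For miR167e/f/g/h/i/j it was 11.23 for PS against GP and 6.80 for MS against MP, a difference of 4.43 (exact test, p = 0.000619), with 1 read in GP and 6 in MP, and 3.71 by miR167e. The same difference can be read as the PS against MS ratio over the GP against MP ratio, and it compares 4 single libraries.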

How the results depend on the processing

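Of 192 values under alternatives, 169 kept their direction and side of the limits (for counts, within 1.5 times), 9 lost and 1 gained the call, 4 turned direction and 9 counts moved. TMM and the median ratio shift log2 ratios by 1.41 and 1.12 in GP against MP, -0.25 and -0.31 in PS against MS, -3.36 and -3.53 in MS against MP, and -3.09 and -3.02 in PS against GP. TMM fitted over the 4 libraries together and the counts of miR167g were added after seeing the data. In GP against MP, the calls were lost for miR167a/b/c/d at -1.48 by TMM and for miR167e/f/g/h/i/j at -2.72 by TMM and -3.00 by the median ratio. TMM over the 4 libraries shifted ratios by -0.50 there, so the direction of that shift depends on the libraries fitted. In PS against MS, where nothing was called, miR167a/b/c/d turned to -0.016 by both TMM fits and -0.075 by the median ratio, and the family to -0.026 by the median ratio. In MS against MP, miR167a/b/c/d lost its call at 0.33 by both TMM fits, 0.16 by the median ratio and 1.13 by known reads, and the family at 1.39 by the median ratio. The difference between the sequences in PS against GP was lost at 2.47 by the members with the fewest reads, and that in PS against MS passed at 0.13 with names summed, which counts reads repeatedly. Called sequences in GP against MP numbered 9, but 14 by TMM over the 4 libraries, 5 with at least 10 reads and 26 with predicted sequences. In MS against MP they numbered 33, but 17 by both TMM fits, 16 by the median ratio, 20 by known reads and 69 with predicted sequences, and in PS against GP 43, but 109 with predicted sequences. The minimum of 10 reads leaves out miR167e/f/g/h/i/j in GP against MP, so it gave no value there or for the difference between sequences. In pollen, 1 to 28 reads carry each miR167 ratio. No paired analysis was possible because each group has 1 library.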
